A study of Mus musculus with 24 samples.

Results

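Aortic endothelial cells of galectin-3 knockout mice (KO) were compared with those of wild-type mice (WT) after both strains had been fed a high-fat diet (HFD). The comparison rests on 6 of the 24 arrays of the series, those titled KO_HFD_Aorta and WT_HFD_Aorta in trials 1, 2 and 3. Arrays of the same trial lay on the same slide, so each trial gave a ratio of KO to WT measured side by side. The KO mice were male B6.Cg-Lgals3tm1Poi/J, a line with a targeted deletion in Lgals3 in every cell, and the WT mice were male C57BL/6J. Mice of 8 weeks of age ate the diet, with 60% of its calories as fat, for 8 weeks. The chow groups, whose aortic arrays share the fit and its estimate of the spread, ate 12% of calories as fat for the same time. Each array carried RNA of about 10000 live CD105+/CD45- cells sorted from the pooled aortae of 3 to 4 mice, so the spread given here is between pools and not between animals.

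The endothelium lines the vessel and sets its tone, its resistance to clotting and the entry of leukocytes and nutrients. Galectin-3 is a lectin that binds beta-galactosides and advanced glycation end products, and it is made by macrophages and many other cells. Endothelial cells also hold a molecular clock, in which Clock and Bmal1 (Arntl) drive genes whose products, such as Per, Cry and Nr1d1, act back on the drive. The question put to these arrays is which transcripts of the aortic endothelium differ when galectin-3 is deleted and the diet is high in fat.

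Levels are log2 of the processed signal over the 75th percentile of the array, so a level of 0 is the 75th percentile, and differences are KO minus WT on that log2 scale. Probes well above background on all arrays of at least 1 of the 2 groups were compared, 24935 of 41174, and they stood for 13799 genes when the brightest probe of each gene was used. A probe was called at an adjusted p under 0.05 in limma. Only 1 probe was called, which is 0.00401% of the probes, and no gene with a symbol was called. The smallest adjusted p over the 13799 genes was 1.0. At an unadjusted limma p under 0.05 stood 280 probes (1.12%), 118 higher (0.473%) and 162 lower (0.65%) in KO. With the slide as a block over the 12 aortic arrays, 432 probes (1.73%) passed that unadjusted threshold and the same number of probes, 1, was called. With the block on the 6 HFD arrays alone, 1429 of the 24935 probes passed it and none was called. Without any difference a share of about 0.05 would pass, and the 1429 probes are near that share. Both fits over the 12 aortic arrays passed fewer, so their p-values are cautious. That no gene was called does not show that no gene differed. What follows therefore describes values, and "higher" or "lower" for a gene names the direction of its mean and not a call.

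The strain of each array was checked on probes that the HFD arrays had no part in choosing. Between the 12 chow arrays of both tissues, 18 probes parted the strains, and 8 of the 11 with a gene symbol belonged to genes on chromosome 14, where Lgals3 lies. On a scale from 0 for the mean of WT chow aorta to 1 for KO chow aorta, the WT HFD arrays of trials 2 and 3 sat at 0.01 and 0.07, and the KO HFD arrays at 0.95 and 1.06. The HFD arrays of trial 1 stood apart, with the array labelled WT at 0.24 and the array labelled KO at 0.47. Both lay between the strains. Several counts, medians and single values below are therefore also given without trial 1.

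**Figure D1:**
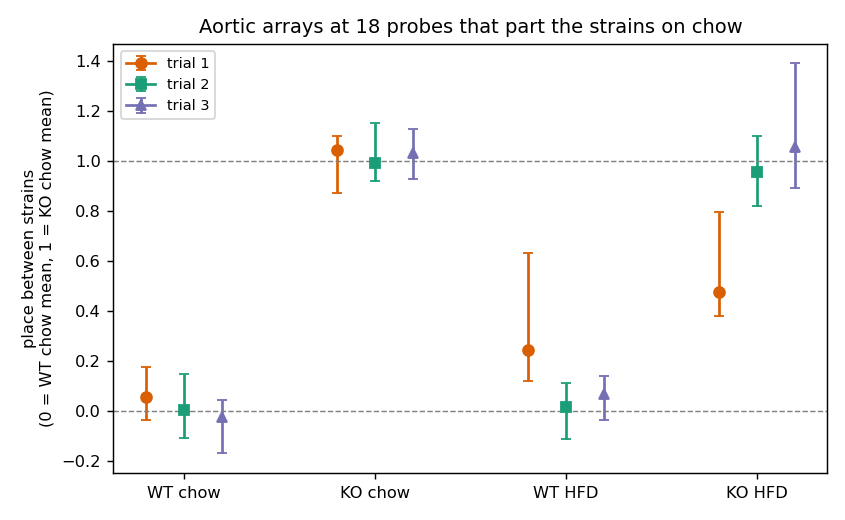
Place of each aortic array between the strains, on a scale where 0 is the mean of WT chow and 1 that of KO chow; points are medians over 18 probes and bars reach from the lower to the upper quartile. The 2 HFD arrays of trial 1 sit at 0.24 and 0.47, while the other HFD arrays sit near 0 or near 1.

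On average the targeted gene was not lower in the arrays labelled KO, though it was in trial 1. The paper reports that primers inside the deleted part gave no product in KO and that aortic lysates had lost the protein. Lgals3 (GRCm38.p6 chr14:47373860-47386167) was measured by 1 probe, NM_010705, whose place relative to the deleted part is not given in the sources used here, so its signal checks nothing about the deletion. Its level in the arrays labelled KO was 2.40, 4.17 and 3.13 in trials 1, 2 and 3, against 3.20, 1.27 and 0.90 in those labelled WT. The ratio was thus -0.79 in trial 1 and 2.90 and 2.23 in trials 2 and 3, with a mean of 1.45 ± 0.59 (SE, limma adjusted p = 1.00) and 2.56 without trial 1. Cp, which codes for the copper carrying ferroxidase ceruloplasmin, showed the same split between trials. Its level was 3.40, 0.19 and -0.03 in KO HFD and 3.26, 3.80 and 3.39 in WT HFD. The mean difference of Cp was -2.30 ± 0.86 (limma adjusted p = 1.00), and it was -3.52 without trial 1, next to -3.55 on chow and -2.48 in muscle endothelium on HFD. In muscle the ratio of Cp was 0.06 in trial 1, against -3.16 and -4.35 in trials 2 and 3. Muscle means given here and below include trial 1.

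The sorted cells carried the transcripts of endothelium in all 6 arrays, with those of other cell types beside them. All 20 endothelial markers were well above background in every array, and their summed level was 8.4 to 9.1 in KO and 8.4 to 9.2 in WT. Eng, which codes for the sorted antigen CD105, had a level of 2.95, 3.38 and 3.94 in KO and 2.68, 3.33 and 3.83 in WT. Ptprc, the gene of CD45, was between -4.07 and -3.79 in KO and between -4.32 and -2.01 in WT, above background in every array. Pecam1 differed by 0.18 ± 0.85, Cdh5 by 0.07 ± 0.43 and Nos3, the endothelial nitric oxide synthase, by 0.13 ± 0.78. Markers of fibroblasts (9 of 9), smooth muscle (10 of 10) and pericytes (6 of 6) were also above background in every array. So were all tested markers of adipocytes (11), brown adipocytes (7), platelets (5), Schwann cells (4) and erythroid cells (3). Of the 10 leukocyte and macrophage markers tested, 8 were. Fewer cells of a type and less RNA per cell cannot be told apart in such pools.

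Differences between trials were larger than differences between strains. Within a trial, 13.2%, 12.0% and 6.43% of the probes had a ratio past 1 log2 in trials 1, 2 and 3. Between trials of the same strain, a mean of 24.1% of the probes in KO and 20.9% in WT lay that far apart. Across probes, which are not independent, the ratios of trials 1 and 2 correlated with a Pearson r of 0.006, those of trials 1 and 3 with 0.153 and those of trials 2 and 3 with 0.106. Ratios above 1 in all 3 trials were found for 50 probes (0.201%) and below -1 for 70 (0.281%). The levels of the KO and WT arrays did not overlap for 264 genes higher in KO (1.91%) and 208 lower (1.51%), and for 1202 and 840 without trial 1, when only 2 arrays a group had to part. Of the 264, 69.3% were also higher in KO on chow, where 53.8% of all genes were. Of the 208, 53.4% were also lower on chow, where 46.2% of all genes were.

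The genes with the largest differences that held in every trial were mostly dim ones, read close to the background of the array. The highest of them in KO was Grp, gastrin-releasing peptide, with levels of -3.43, -4.57 and -2.73 in KO. In WT its levels were -8.67, -8.24 and -8.61, not well above background in any array. The signal in KO was at least 6.47-fold higher, a bound set by the dimmest probes that count as well above background in the WT arrays, though the probe was not called (limma adjusted p = 1.00). Bounds of this kind, here and below, hold only for the processed signal with that floor and not for other background corrections. Adamdec1, a metalloprotease of the ADAM family, had levels of -4.44, -4.29 and -6.04 in KO and of -8.76, -8.30 and -8.70 in WT, so that it was at least 2.54-fold higher in KO. The KO arrays were above background for both genes and the WT arrays were not, so that the size of each trial's ratio is not measured, while on chow the mean differences were -2.14 and -1.43.

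Bounds of this kind, for probes not well above background in any WT array, were at least 1.88-fold for Ccdc113, a protein of cilia, 1.66-fold for Kcnj12, an inward rectifier potassium channel, 2.94-fold for Elk4, an ETS cofactor of serum response factor, and 1.78-fold for Cldn2, a pore-forming claudin. With normexp background correction the difference of Elk4, 1.38 on the log2 scale, was below its bound. Tal2, a helix-loop-helix transcription factor, was seen above background in 3 KO arrays and 1 WT array. Its ratios were 5.26, 2.37 and 3.80. Net1 and Ralgps1, exchange factors for small GTPases, differed by 2.45 ± 0.99 and 1.73 ± 0.53, or by 1.49 and 1.04 with normexp background correction. Dnajc6, the clathrin uncoating factor auxilin, differed by 1.61 ± 0.53. These 3 genes were above background in 2 of the 3 WT arrays. Pnoc, the precursor of nociceptin, was the only gene of the 12 that was above background in all 6 arrays. Its levels were 0.44, 1.14 and 0.43 in KO and -0.93, -1.47 and -1.31 in WT, a difference of 1.91 ± 0.84. On chow its mean difference was -2.12, with ratios of -1.80, 0.93 and -5.50 in trials 1, 2 and 3.

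Ifi44l, an interferon-induced gene, had a mean above 0 in the aorta on both diets and in muscle endothelium on HFD. Its levels were -4.35, -3.17 and -0.92 in KO HFD and -5.71, -8.22 and -8.62 in WT HFD, of which only 1 array was above background, so the size of the difference is not exact. The fitted mean was 4.70, or 2.97 with normexp background correction, with 5.93 on chow and 4.43 in muscle endothelium on HFD, where the ratio of trial 1 was only 0.38. It was not called (limma adjusted p = 1.00).

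Among the 12 genes lower in KO, Wdfy4, which serves cross-presentation in dendritic cells, had levels of -7.03, -7.49 and -7.38 in KO, below background in each array. Its WT levels were -3.44, -4.09 and -4.97, at least 3.66-fold higher than in KO. The same bound was 2.08-fold for Ctnna2, an alpha-catenin, 2.2-fold for Msx2, a homeobox factor of bone and of vascular calcification, 2.67-fold for Prf1, the pore-forming perforin of cytotoxic lymphocytes, and 1.99-fold for Baiap2l2, a membrane-bending protein. With normexp the log2 differences of Wdfy4, Ctnna2, Prf1 and Baiap2l2 were -1.67, -0.95, -1.05 and -0.79, each smaller in size than its bound. Of those measured in at least some KO arrays, Piwil2, a partner of piRNAs, differed by -2.52 ± 0.94 and Slc51b, a subunit of a bile acid and steroid transporter, by -1.91 ± 0.70. Piwil2 was above background in only 1 KO array, and its difference was -1.44 with normexp. Snph, which anchors mitochondria and was also above background in 1 KO array, differed by -1.87 ± 1.06 (-0.94 with normexp), and Npr1, the guanylate cyclase receptor of atrial natriuretic peptide, by -1.22 ± 0.85 (-0.80 with normexp). Kif13b, a kinesin motor, Elfn1, a synaptic adhesion protein, and Ang2, a ribonuclease of the angiogenin family and not angiopoietin 2, were above background in all 6 arrays. Their differences were -1.92 ± 0.82, -1.45 ± 0.59 and -1.54 ± 0.64. The called probe, A_52_P207654, has no gene symbol here and was also below background in every KO array. Its levels were -8.01, -7.82 and -8.49 in KO and -4.87, -4.60 and -4.31 in WT, at least 2.73-fold higher in WT (limma adjusted p = 0.00466), and its difference on chow was -3.62. The call was lost with the 6 HFD arrays alone, with or without the slide as a block, with normexp background correction and without any 1 of the trials. A filter for probes above background on all 6 arrays leaves this probe out, so it was not tested there.

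**Figure D2:**
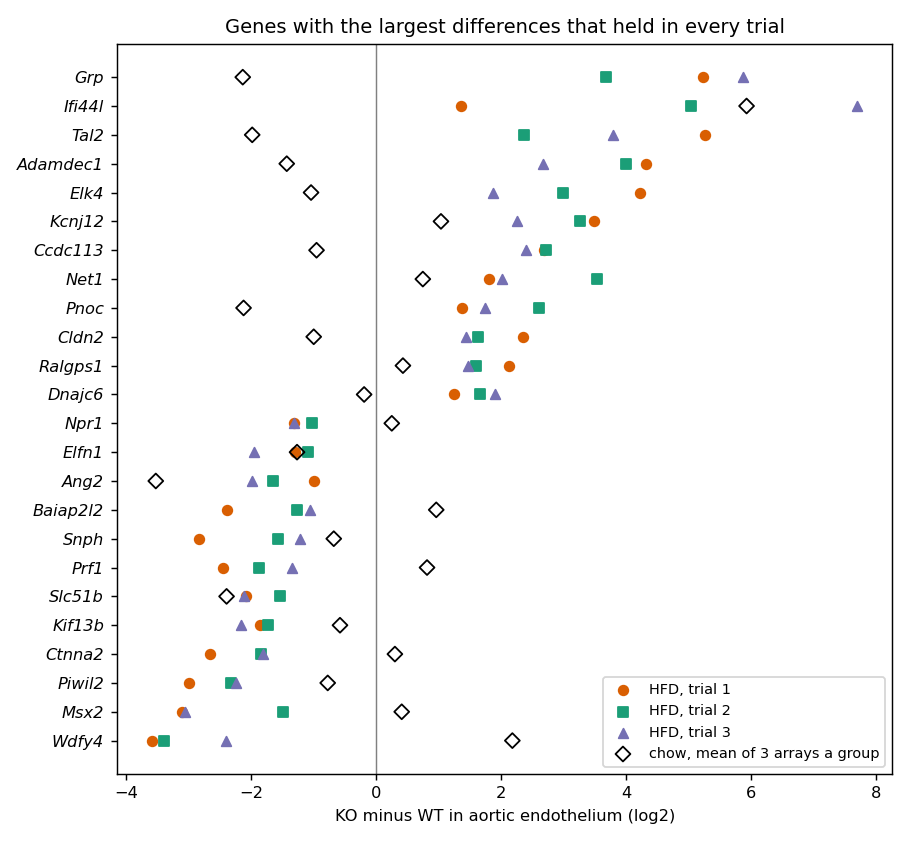
KO minus WT in aortic endothelium (log2) for the 12 genes higher and the 12 lower in KO chosen by the smallest of their 3 trial ratios; filled points are the ratios on HFD by trial and open diamonds the mean difference on chow. Ratios on HFD are of 1 sign for each gene because that chose them, while the chow values fall on either side, from 5.93 for Ifi44l to -3.53 for Ang2.

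Clock genes had a higher median difference than any other list of genes described here. Of 19 genes on the list, 17 were above background in every array, and their median difference was 0.49 beside 0.016 over all genes. The median was 0.73, 0.18 and 0.50 in trials 1, 2 and 3, where the median over all genes was -0.10, 0.16 and -0.02. In every trial 8 of the 17 were higher in KO, where 13.6% of all genes were, and 3 were lower, where 9.65% of all genes were. Of the 17, 3 had an unadjusted limma p under 0.05, all higher in KO, where 0.688% of all genes did. The groups did not overlap for 3, all higher in KO, where 1.91% of all genes did so. Without trial 1 the median was 0.38, beside 0.068 over all genes, and 2 of the 17 passed the unadjusted threshold, as 0.681% of all genes did. With the slide as a block 4 of the 17 passed it, Nr1d1, Dbp and Cry2 higher and Arntl lower, as 1.23% of all genes did.

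Several of these genes are targets of Clock and Bmal1 through the E-box CACGTG, and their promoters are shown for that reason. Windows from 250 bases before to 50 bases after the start site (RefSeq, GRCm38.p6) were at hand for 16 genes of the list. CACGTG, which reads the same on both strands, was found in 6 of their 21 windows, those of Ciart, Tef, Cry1, Per1 and Bhlhe41, and in 7.15% of all 32851 windows. The windows of Nr1d1 and Dbp do not hold it. Ciart and Tef, which were higher in KO in every trial, and Cry1, which was lower in every trial, are printed with the E-boxes in capitals. The windows are chr3:95882179-95882478, minus strand, for Ciart, chr15:81802423-81802722, plus strand, for Tef and chr10:85185005-85185304, minus strand, for Cry1.
Ciart: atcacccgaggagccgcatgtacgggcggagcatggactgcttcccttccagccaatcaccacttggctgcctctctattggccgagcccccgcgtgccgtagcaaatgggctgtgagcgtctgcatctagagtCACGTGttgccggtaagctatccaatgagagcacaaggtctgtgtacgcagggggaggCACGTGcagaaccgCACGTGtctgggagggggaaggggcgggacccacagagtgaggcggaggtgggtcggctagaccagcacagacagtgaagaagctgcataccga
Tef: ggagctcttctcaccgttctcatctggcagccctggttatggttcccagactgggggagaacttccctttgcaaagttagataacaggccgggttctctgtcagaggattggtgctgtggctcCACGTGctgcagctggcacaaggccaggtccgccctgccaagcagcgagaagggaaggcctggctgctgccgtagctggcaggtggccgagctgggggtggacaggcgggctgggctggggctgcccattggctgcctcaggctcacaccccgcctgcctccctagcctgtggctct
Cry1: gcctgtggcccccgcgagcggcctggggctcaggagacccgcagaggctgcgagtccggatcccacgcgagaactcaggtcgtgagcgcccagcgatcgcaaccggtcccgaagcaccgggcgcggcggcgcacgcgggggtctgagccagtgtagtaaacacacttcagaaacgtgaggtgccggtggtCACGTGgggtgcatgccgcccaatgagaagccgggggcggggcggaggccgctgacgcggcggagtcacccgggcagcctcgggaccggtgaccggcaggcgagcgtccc

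Nr1d1 and Dbp, which the clock drives in nearly every tissue, differed the most. Nr1d1 codes for the nuclear receptor REV-ERB alpha, which represses Arntl. Its levels were 1.57, 1.43 and 0.76 in KO and 0.20, -0.06 and -0.48 in WT, so the groups did not overlap and the ratios were 1.37, 1.49 and 1.24. The difference was 1.36 ± 0.40 (limma adjusted p = 1.00) and was also 1.36 without trial 1. Dimmer probes of Nr1d1 differed by only 0.32 and 0.08, so the result rests on the brightest of its 3 probes. Dbp codes for a PAR bZIP factor that carries the rhythm to other genes. Its levels were 5.46, 4.93 and 3.81 in KO and 4.36, 3.15 and 2.34 in WT. The groups overlapped, because the level differed between trials, yet within each trial KO was higher, by 1.1, 1.78 and 1.47. The difference was 1.45 ± 0.63 (limma adjusted p = 1.00), and with the slide as a block its SE was 0.23.

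Other members of the list with a mean above 0 had smaller means. Nr1d2, the paralog of Nr1d1, differed by 0.55, 0.51 and 0.50 in the 3 trials and Ciart, a repressor of the clock, by 0.75, 0.85 and 0.82. Tef, a PAR bZIP factor like Dbp, differed by 0.73, 0.22 and 0.54, and Per2 by 0.74, 0.14 and 1.77. A dimmer probe differed by 2.04 for Tef and by 0.15 for Per2. Cry2, a repressor, had levels of -0.09, -0.80 and -0.04 in KO and -1.46, -0.86 and -1.0 in WT. Its groups did not overlap, and the difference of 0.80 ± 0.34 (limma adjusted p = 1.00) was 0.51 without trial 1. Bhlhe40 was also higher without overlap, by 0.80, 0.68 and 0.08. Hlf, the remaining PAR bZIP factor, differed by 0.91, -0.13 and 0.83.

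Without the block and by its brightest probe, no member passed the unadjusted threshold in the other direction. Arntl, the gene of Bmal1, had levels of -0.25, 0.25 and 0.62 in KO and 0.58, 0.72 and 0.98 in WT, lower in KO in each trial by 0.83, 0.46 and 0.37 on the log2 scale. The groups overlapped, and the difference was -0.55 ± 0.33, with an SE of 0.22 when the slide was a block, where it passed the unadjusted threshold. Nfil3, a bZIP repressor that acts against Dbp, was the lowest member at -0.70 ± 0.52, with ratios of -1.17, 0.18 and -1.10 and a mean of -0.46 without trial 1. Cry1 differed by -0.91, -0.84 and -0.24. The brightest probe of Clock differed by -0.06, but its 2 dimmer probes by -0.04 and -1.13, the latter past the unadjusted threshold with ratios of -0.39, -1.05 and -1.94. Per1 had no common direction (-0.86, 0.32 and 0.66). Npas2 and Per3 were not well above background in all arrays of either group.

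In skeletal muscle endothelium on HFD, measured on arrays of their own from the same 3 experiments, 15 of the 17 clock genes differed in the direction seen in aorta, as 52.6% of all genes did. There the difference was 1.41 for Nr1d1, 1.5 for Dbp, 1.00 for Tef, 0.94 for Ciart, 1.60 for Per2 and -1.14 for Arntl. The methods of the paper read as if aortae and leg muscles came from the same mice. In that case the muscle arrays are not an independent check of the aortic ones. On chow, 12 of the 17 had the direction of HFD in the aorta, as 60.6% of all genes did, and Dbp differed by 0.48, Nr1d1 by 0.77 and Arntl by -0.35. The list as a whole was not higher there, with 8 of 17 above 0 and a median of -0.16, and Ciart, Bhlhe40 and Hlf, above 0 on HFD, stood at -0.52, -0.56 and -0.74. The difference between HFD and chow was not called for any clock gene, and it was 0.97 ± 0.90 for Dbp and 0.59 ± 0.57 for Nr1d1. The hour at which each pool was collected is not given in the sources used here.

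**Figure D3:**
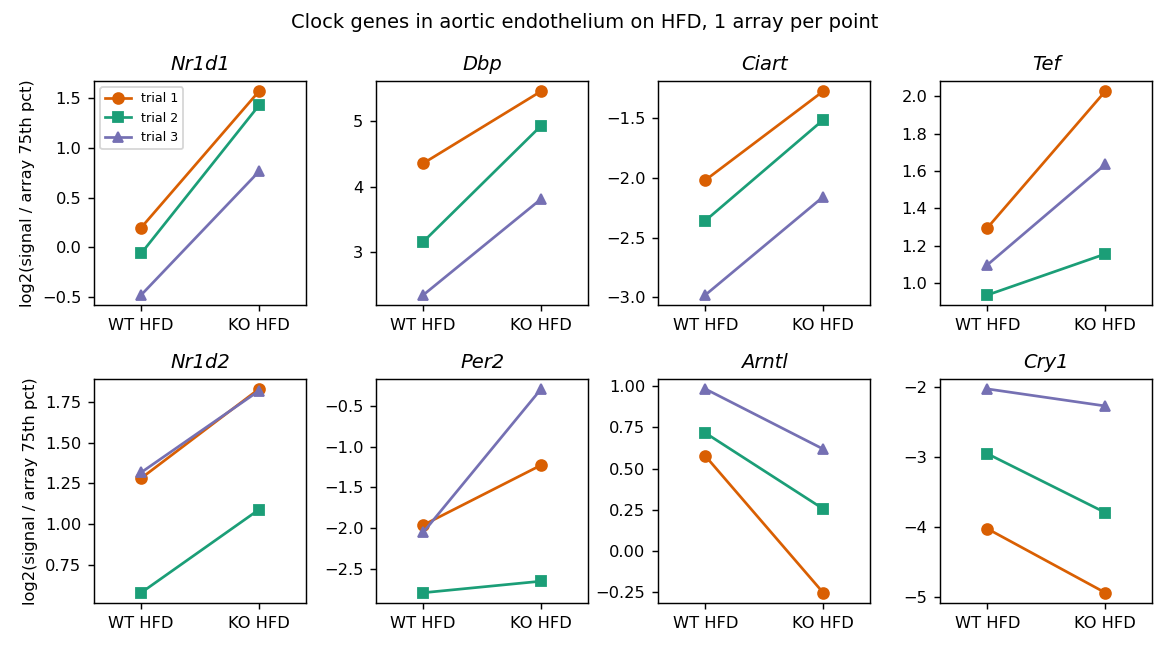
Level (log2 of signal over the array's 75th percentile) of 8 clock genes in WT HFD and KO HFD, 1 point per array, with lines joining arrays of a trial; the y axis differs between panels. Lines go up from WT to KO in all 3 trials for Nr1d1, Dbp, Ciart, Tef, Nr1d2 and Per2 and down for Arntl and Cry1.

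Most matrix genes had a mean above 0. The list of fibrillar and elastic matrix had 25 members above background, with a median of 0.22. Of these, 20 lay above 0, where 53% of all genes did, the share to set beside such counts below. In every trial 10 were higher in KO, where 13.6% of all genes were. Without trial 1, 23 lay above 0 (61.7% of all genes did), with a median of 0.22. On chow 9 did (53.8% of all genes), with a median of -0.12. Thbs1, thrombospondin 1, a matricellular inhibitor of angiogenesis, had levels of -3.47, -2.73 and -1.28 in KO and -4.49, -4.0 and -3.52 in WT. The groups did not overlap, and the difference of 1.51 ± 0.60 (limma adjusted p = 1.00) was 1.76 without trial 1 and 0.01 on chow. Thbs2, its close relative, differed by 1.37, 0.70 and 1.03. Postn, periostin, had levels of 3.92, 4.48 and 4.27 in KO and 3.51, 3.86 and 3.65 in WT, also without overlap. Tnc, tenascin C, was the highest member at 1.61 ± 0.95 and Fbln1, fibulin 1, the lowest at -0.07 ± 0.52. Col1a1, Col1a2 and Col3a1, chains of the fibrillar collagens, differed by 0.07, 0.01 and -0.03. The summed level of fibroblast markers was 8.3 to 9.2 in KO and 8.4 to 9.0 in WT, and their part in the matrix values was not tested.

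Of the basement membrane, 15 of 19 members lay above 0, with a median of 0.11. No member had an unadjusted limma p under 0.05, which only 0.688% of all genes had, so the count says little. The highest member was Col4a2 at 0.72 ± 0.46 (0.45 without trial 1), the lowest Lama4, a laminin chain of vessels, at -0.15 ± 0.36 (-0.51 without trial 1). The arterial identity list had 23 of 30 above 0 and a median of 0.15. The groups overlapped for every member, which also says little, since only 1.91% of all genes were higher and 1.51% lower without overlap. Without trial 1 only 17 of 30 lay above 0, where 61.7% of all genes did, with a median of 0.092. Hes1, a target of Notch, was its highest member, with ratios of 0.26, 3.45 and 0.74, and Angpt1, a ligand of Tie2, the lowest at -0.96 ± 0.98. The Sox factors of endothelium, Sox7, Sox17 and Sox18, differed by 0.52, 0.39 and 0.46.

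**Figure D4:**
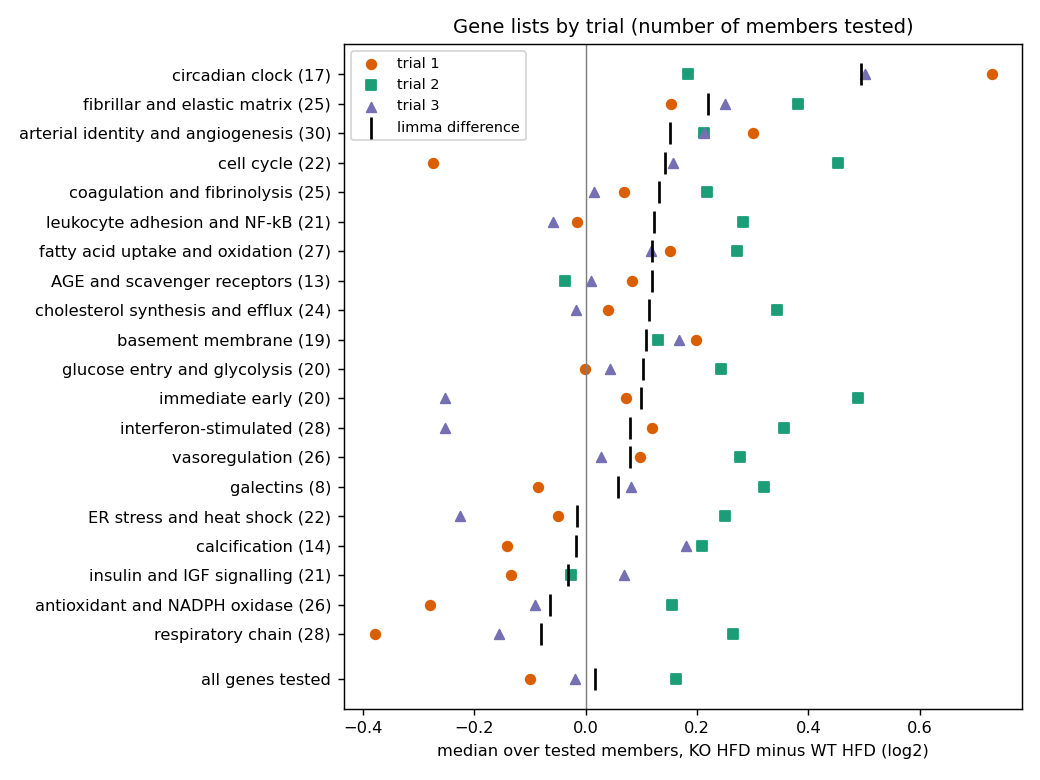
Median difference (KO HFD minus WT HFD, log2) of 20 gene lists, over the tested members, whose number is in brackets; coloured points are the 3 trials, black bars the limma difference, and the last line all genes tested. The clock list has the highest median, 0.49, and all genes together sit at -0.10, 0.16 and -0.02 by trial.

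Genes of glucose entry and glycolysis had a median of 0.10, and 14 of 20 lay above 0. None passed the unadjusted threshold, which so few of all genes passed (0.688%) that the count says little for a list of this size. Slc2a4, which codes for the insulin-responsive transporter GLUT4, had levels of -1.38, -0.08 and -0.19 in KO and -0.59, -1.12 and -0.20 in WT, and differed by 0.08 ± 0.52. Slc2a1, the gene of GLUT1, differed by 0.17 ± 0.39. Slc2a3, the gene of GLUT3, was the highest member at 0.72 ± 0.44, or 0.21 without trial 1, and G6pc, glucose-6-phosphatase, the lowest at -0.10 ± 0.39. In insulin and IGF signalling, 10 of 21 lay above 0 with a median of -0.03. Igfbp3, a carrier of IGF, did not overlap, at 2.02, 1.74 and 1.99 in KO and 0.86, 1.69 and 1.36 in WT, a difference of 0.62, or 0.34 without trial 1. Ptpn1, the phosphatase that turns off the insulin receptor, was at 3.33, 3.08 and 3.03 in KO and 3.6, 3.44 and 3.39 in WT, lower without overlap, though a dimmer probe differed by 0.10. Irs1 and Igf1 differed by 0.03 and 0.07, and Foxo3 was the lowest member at -0.94 ± 0.57, a value set by trial 1 (-0.11 without it).

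Among genes of fatty acid uptake and oxidation, 17 of 27 lay above 0. Meox2, a transcription factor of fatty acid transport in endothelium, was the lowest member, at 4.14, 4.37 and 4.00 in KO and 4.38, 4.40 and 4.58 in WT, without overlap. Ucp2, a mitochondrial carrier, was the highest at 0.82 ± 0.80 (0.54 without trial 1). In cholesterol synthesis and efflux, 18 of 24 lay above 0 and 8 were higher in every trial, where 13.6% of all genes were. Nr1h3, the sterol sensor LXR alpha, was at 1.69, 1.13 and 1.13 in KO and 1.05, 0.94 and 0.88 in WT, without overlap, a difference of 0.36, or 0.22 without trial 1. Insig1 was the lowest at -0.90 ± 0.94, with ratios of -1.10, 1.15 and -2.76.

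The lists of vascular tone, clotting and inflammation held none of the 0.688% of genes past the unadjusted threshold, a count that says little at their size. The medians were 0.08 for 26 genes of vasoregulation, 0.13 for 25 of coagulation and fibrinolysis, 0.12 for 21 of leukocyte adhesion and NF-kB and 0.08 for 28 interferon-stimulated genes. Gch1, which makes the cofactor of nitric oxide synthase, and Ednrb, an endothelin receptor, marked the ends of vasoregulation at 0.70 ± 0.60 and -0.29 ± 0.53. Gch1 was 1.1 without trial 1 and 0.28 without trial 2, and another probe of Ednrb differed by 0.55. Plau, urokinase, and Vwf, von Willebrand factor, did so for coagulation at 1.30 ± 0.93 and -0.23 ± 0.44 (-0.068 without trial 1), and F3, tissue factor, differed by -0.04. Sele, E-selectin, and Ackr1, a chemokine scavenger of venules, differed by 0.79 ± 1.1 and -0.56 ± 0.53. Cxcl10, an interferon-induced chemokine, was higher without overlap at 0.74, 1.56 and 1.25 in KO and 0.27, 0.63 and 0.50 in WT. Gbp4 was the lowest interferon-stimulated gene at -0.38 ± 0.73.

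Of the receptors that share ligands with galectin-3, 9 of 13 tested scavenger and AGE receptors lay above 0. Marco, a scavenger receptor of macrophages, had the highest difference, 2.80 ± 1.78, with levels of 0.71, 2.64 and 3.21 in KO and -2.31, 2.68 and -2.21 in WT. Olr1, the receptor of oxidised LDL, was the lowest at -1.94 ± 1.05, lower in KO in every trial (-1.62, -3.06 and -1.15). Retnla, a product of alternatively activated macrophages, had ratios of 0.78, -3.65 and 4.35. Among the other galectins, Lgals12 was the lowest at -0.56 ± 1.12, a value that was 0.30 without trial 2 and -0.99 without trial 1. The summed level of the leukocyte and macrophage markers, of which 10 of the 13 on the array were tested, was 1.9 to 2.2 in KO and 1.9 to 2.6 in WT, and their part in these values was not tested.

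The remaining classes had medians between -0.081 and 0.14, or between 0.043 and 0.27 without trial 1, where the medians of the antioxidant, calcification, ER stress and respiratory chain lists turned from below to above 0. In the respiratory chain, 22 of 28 members lay below 0, but with trial 1 left out 22 lay above it, where 61.7% of all genes did, and no member had 1 direction in all trials. Cycs, cytochrome c, was the lowest at -0.27 ± 0.33. Gpx3 was the highest antioxidant gene at 0.24, and cell cycle genes ran from Ccnb2 at 0.42 to Aurka at -0.54, which were 0.77 and 0.26 without trial 1 and 0.085 and -1.18 without trial 2. Immediate early genes ran from Ier3 at 0.62 to Dusp1 at -0.12. In ER stress and heat shock, Trib3, a pseudokinase that binds AKT, was higher without overlap at 1.34, 1.88 and 1.66 in KO and 0.97, 1.20 and 1.18 in WT, between Sdf2l1 at 0.74 (0.39 without trial 2) and Ddit3 at -0.31. In calcification the ends were Tnfrsf11b, osteoprotegerin, at 0.85 ± 0.61 (0.51 without trial 3) and Msx2. Cav3, muscle caveolin, and Ptgfr, a prostaglandin receptor, differed by -0.18 ± 0.99 and 0.38 ± 0.67.

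Of the adipocyte markers, 10 of 11 lay above 0, with a median of 0.37, but 7 of 11 without trial 1, with a median of 0.18. Of the leukocyte and macrophage markers, 8 of 10 lay below 0, with a median of -0.30, but the trials differed, with medians of -0.48, -1.56 and 0.71, and without trial 1 the median was -0.12, with 4 of 10 above 0. All 3 erythroid markers lay below 0, with a median of -0.63, or -0.29 without trial 1. Tyrobp, an adaptor of myeloid receptors, was at -3.35, -4.43 and -2.52 in KO and -0.84, -0.86 and -3.26 in WT (limma adjusted p = 1.00), lower in trials 1 and 2 and higher in trial 3. Cd2, an adhesion receptor of T cells, was lower without overlap by 0.66, 1.87 and 1.47 on the log2 scale (limma adjusted p = 1.00), while Cd3e differed by 0.21. Mrc1 was the highest macrophage marker, at 0.32. Of the 6 lymphatic markers tested, 4 lay below 0 and 2 above, and the trials differed, with medians of -0.78, 0.14 and -0.64. Ccl21a, Mmrn1 and Reln were lower in every trial, as 9.65% of all genes were, with means of -0.83, -0.73 and -0.68. Prox1 was the highest at 0.21. The summed level of the lymphatic markers was 4.6 to 6.1 in KO and 5.6 to 6.6 in WT. Hba-a1, alpha globin, was lower without overlap (2.68, 2.78 and 1.97 against 3.28, 3.03 and 3.17), with Alas2 at -0.26. Notch3 was higher without overlap among pericyte markers (2.81, 3.17 and 2.93 against 2.41, 2.50 and 2.62), between Rgs5 at 0.89 (0.46 without trial 1) and Kcnj8 at -0.07. Adipoq, adiponectin, was the highest adipocyte marker, higher by 2.98, 2.26 and 0.72 in the 3 trials, with Slc7a10 at -0.33, and the summed adipocyte level was 4.7 to 5.4 in KO and 4.2 to 5.1 in WT.

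The ends of the other marker lists were Tie1 at 0.25 and Erg at -0.43 for endothelium (-0.17 and -0.98 without trial 1), Cidea at 0.64 and Ppargc1a at -0.26 for brown fat, and Lmod1 at 0.33 and Cnn1 at -0.26 for smooth muscle. They were Dpt at 0.30 and Pdgfra at -0.09 for fibroblasts, Myh4 at 1.31 and Tnnt3 at -0.27 for muscle fibres, and Itgb3 at 0.19 and Ppbp at -0.24 for platelets. S100b was the lowest Schwann cell marker at -0.49, and Krt8, the only mesothelial marker tested of 6, by -0.12. A dimmer probe of Ppargc1a differed by 1.36, and 8 of the 25 named genes with several probes had probes of both signs.

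The genes that differed between the strains were most frequent on chromosome 14. That chromosome holds 465 of the 13799 genes tested (3.37%) and 21 of the 95 with an unadjusted limma p under 0.05 (22.1%). Put otherwise, 4.52% of the genes tested on chromosome 14 passed, against 0.555% on the other chromosomes. Without trial 1 the count was 20 of 94. The 21 genes spread from Tmem254a (GRCm38.p6 chr14:25923298-25927672), on the centromeric side of Lgals3, to Acod1 (chr14:103047012-103056573) on the other. Of these 21, 9 were higher and 12 lower in KO, 16 had the same direction on chow, as 60.6% of all genes did, and 16 in muscle endothelium on HFD, as 52.6% did. Of the 74 genes past that threshold on other chromosomes, 50 had the same direction on chow.

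They fell into different patterns by trial. In 8 of the 21, the ratio was under 0.5 in size in trial 1 and past 1 in trials 2 and 3, and all 8 had the same direction on chow. Rnase1, a secreted ribonuclease of vessels that was above background in all 6 arrays, had ratios of -0.07, 2.48 and 2.49. Opn4, the photopigment melanopsin, was above background in 3 KO arrays but 1 WT array, Ptpn20, a phosphatase, in 1 KO array and 3 WT arrays, and Trim13, a ubiquitin ligase of the endoplasmic reticulum, in 2 and 3, so that not every ratio of these 3 genes has an exact size. In 10 others the ratio was past 1 already in trial 1, among them Adamdec1, Wdfy4, Piwil2, Kif13b and Pnoc, and 5 of these 10 had the same direction on chow. Rpgrip1, a ciliary protein, was lower in every trial, by 0.83, 1.77 and 2.29 on the log2 scale, and by 2.48 on chow. Ang2, Ang4 and Rnase1 belong to 1 gene family, and their probes may share target sequence. The patterns were described after the values were seen.

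**Figure D5:**
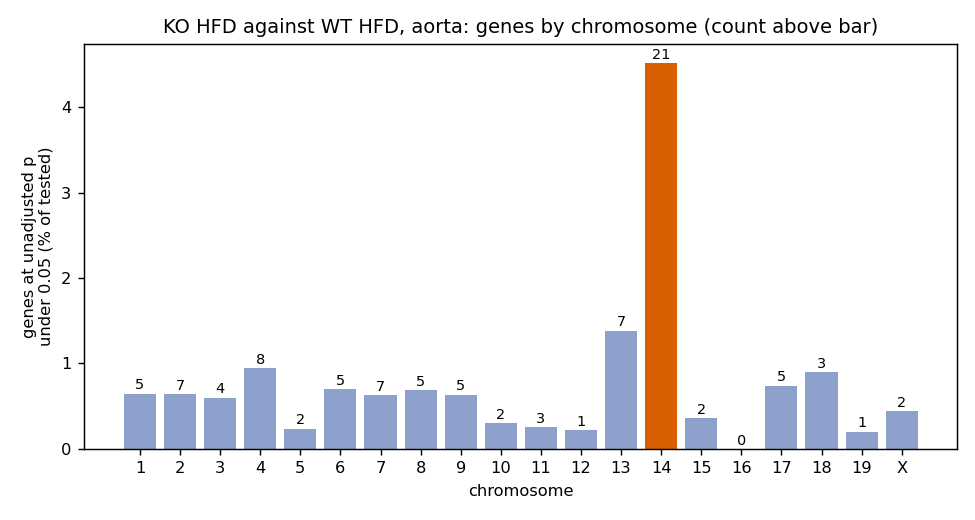
Share of tested genes with an unadjusted limma p under 0.05 between KO HFD and WT HFD, in percent, by chromosome, with the count above each bar; the 5 genes tested on chromosome Y are left out. Chromosome 14, which holds Lgals3, stands at 4.52% (21 genes).

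Whether a difference belonged to the high-fat diet was asked by setting it against the difference on chow in the same fit. No probe was called for a difference between the diets by limma (0%), and 379 (1.52%) had an unadjusted p under 0.05. For Thbs1 the difference between the diets was 1.5 ± 0.85 and for Lgals3 -0.18 ± 0.83.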

How the data were processed

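Of 24 single-colour Agilent Whole Mouse Genome arrays, 6 are described here, 3 a group, with the other 6 aortic arrays in the same fit. Per the file headers, Feature Extraction 10.5.1.1 made the processed intensity of each spot by background subtraction and detrending, without scaling between arrays. The submitters' processing notes name version 9.1. The log2 values deposited beside the scanner output were equal to the log2 of these intensities plus 1 constant per array. The 75th percentile of the 6 arrays was 3611 to 5938, and 61.6% to 69.3% of 43379 non-control spots were well above background. No spot was saturated. Precision is limited by the number of arrays.

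Log2 of the processed intensity over the array's 75th percentile was averaged over the spots of a probe, without outlier spots. A probe counted as above background where a share of 0.5 or more of its spots on that array did. A dropped spot left 84 of the tested probes without a value on 1 or more of the 6 arrays, and the fit used the arrays that remained. Symbols came from RefSeq and Ensembl accessions through a table for GRCm38.p6 (27479 probes, 18749 symbols), and promoter windows from RefSeq. The 4 aortic group means were fitted with the R package limma (version 3.58.1, R version 4.3.3), two-sided, without a block, with Benjamini-Hochberg adjustment over 24935 probes. Files were read with data.table (1.17.8), and tables and figures were made with Python 3.11.15, pandas 2.3.3, numpy 2.4.6 and matplotlib 3.10.9. In simulated data for this comparison (24689 probes), 37 of 100 probes changed by 2 log2 and 84 of 100 changed by 4 log2 were called, with 7 of 24489 unchanged ones. The simulated noise was independent between arrays, while real arrays of a trial were alike, so these rates need not hold for the real arrays.

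The labels name 3 independent experiments and the arrays of a trial share a slide. Deviations from the group means correlated within trials by 0.359, 0.319 and 0.644, so trial numbers pair the arrays. Trial 1 was scanned in another session than trials 2 and 3. Genes named are every called probe, the 12 genes higher and 12 lower with the largest smallest-of-3 ratio among those of 1 sign without overlap (numbered gene models left out), the members of each list at an unadjusted p under 0.05 or without overlap with its highest and lowest member, and fixed single genes. The highest or lowest member of some lists is not reported here. Other genes on chromosome 14, and further members of the clock, matrix, arterial and lymphatic lists, were named after their values were seen. Lists and comparisons were chosen with earlier results of these data known. Of 591 list genes, 577 had a probe and 530 were tested. Alternatives were normexp on the median spot and local background intensities (offset 50), quantile normalization, median centring, the deposited table, other filters, the 6 arrays alone, the slide as a block, each trial left out, the mean of all probes of a gene and an unpaired t-test of levels on the 6 HFD arrays.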

Additional observations from a re-analysis of the deposited data

Results flagged for a closer look

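Tal2, Wdfy4 and Baiap2l2 ran in opposite directions on the 2 diets, with every trial of HFD on 1 side of 0 and every trial of chow on the other. The difference between the diets (KO minus WT on HFD, minus the same on chow) was fitted as 5.79 for Tal2, -5.31 for Wdfy4 and -2.53 for Baiap2l2, and none was called (limma adjusted p = 1.00 for each). On chow the ratios were -2.27, -3.63 and -0.05 for Tal2, 0.90, 3.32 and 2.31 for Wdfy4 and 0.35, 0.72 and 1.82 for Baiap2l2. Each was not well above background on at least 2 of the 3 arrays of 1 group on HFD, so the fitted sizes are not exact. The genes were chosen for large HFD ratios of 1 sign, which favours such a difference.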

How the results depend on the processing

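The count of called probes, 1 and lower in KO, was unchanged by leaving dim probes in, quantile normalization, median centring, the authors' log2 values and the slide as a replicate block over the 12 aortic arrays. It was 0 with the 6 HFD arrays alone, with the replicate block on those 6, with normexp and without any of the 3 trials (0 to 0). It was also 0 with the filter for probes above background on all 6 HFD arrays, which leaves the called probe out before testing. No setting called a probe higher in KO. The 280 probes at an unadjusted p under 0.05 became 509 with the 6 HFD arrays alone, 432 with the replicate block over 12 arrays, 1429 with the replicate block on 6, 869 with no filter and 163 with the filter for all 6 arrays. The 1429 are near the share of about 0.05 that would pass without any difference. An unpaired t-test of the levels on the 6 HFD arrays passed 443 and called 0 probes after Benjamini-Hochberg adjustment. In the paper such a test compared the responses of the strains to HFD, not these levels. With a trial left out, the 280 ranged from 264 to 375. The trial numbers pair the arrays, and the block changed no other call. Probes past 1 log2 in every trial, 50 higher and 70 lower, were 17 and 19 with normexp and 15 and 16 with the filter for all 6 arrays, and 142 were higher with no filter. With 2 trials in place of 3, 172 to 226 were higher and 173 to 346 lower, since fewer trials have to pass. Of 1328 values of the 113 named genes under these settings, 31 changed sign, 1 of them under another scaling (Cdh5 was -0.024 with normexp) and 30 when a trial was left out. With normexp 29 of the 113 moved by over 1.5 times with the same sign, 26 of them to smaller values. Leaving out each trial in turn gave Lgals12 from -0.99 to 0.30, Lama4 from -0.51 to 0.12, Fbln1 from -0.23 to 0.041, Insig1 from -1.93 to 0.026, Ackr1 from -1.03 to 0.0032, Aurka from -1.18 to 0.26, Tie1 from -0.17 to 0.70, Prox1 from -0.0092 to 0.34, Slc7a10 from -0.68 to 0.18, Ppargc1a from -0.43 to 0.0070, Cnn1 from -0.59 to 0.13, Kcnj8 from -0.28 to 0.11, Dpt from -0.069 to 0.61, Tnnt3 from -0.54 to 0.20, Itgb3 from -0.082 to 0.43, Ppbp from -0.59 to 0.015, Krt8 from -1.22 to 0.44, Ptprc from -0.81 to 0.48, Pecam1 from -0.020 to 0.50, Cdh5 from -0.10 to 0.16, Slc2a4 from -0.39 to 0.52, Cav3 from -0.52 to 0.27, Retnla from -1.43 to 2.57, Irs1 from -0.055 to 0.17, Igf1 from -0.083 to 0.17, F3 from -0.24 to 0.11 and Nos3 from -0.044 to 0.36. Of 441 medians of the 34 lists, 7 moved by more than the SD over the trial medians, all when a trial was left out. The clock list was not among them, with a median of 0.38 without trial 1 and an SD of 0.27. Leaving out 1 of 3 trials can hardly move a median by that SD, so staying within it says little about a list. The limits are those of 3 pools a group, of which the pair of trial 1 lay between the strains, and of dim probes. Differences of dim probes have only a bound, which depends on the background correction.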
